A study of Mus musculus with 4 samples.

Results

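The genes of the LIM complex, Isl1, Isl2, Lhx3, Lhx4, Ldb1 and Lmo4, were followed through a list of genomic sites bound by a Flag-tagged Isl1-Lhx3 fusion. A peak was counted for one of these genes when the start of that gene was the nearest protein-coding gene start to the peak maximum, which chose 6 of 2454 nuclear peaks, in 5 of 2301 regions. Lhx3 had a strong peak and a moderate one beyond the end of the gene, Lmo4 had a pair of maxima in an intron, and Isl1 had a pair of peaks that each sat on a coding exon. Isl2, Lhx4 and Ldb1 had no peak.

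The sites come from Flag ChIP-seq on iMN-ESCs, a mouse embryonic stem cell line built on A172LoxP with a doxycycline-inducible (Dox-inducible) gene for the fusion. Embryoid bodies received retinoic acid at 0.5 µM for 2 days, then 4 more days of retinoic acid either with Dox at 2 µg/mL (n = 2 libraries) or without it (n = 2 libraries), and LIF was present for the last 16 hours in both groups. All 4 libraries come from cells that carry the transgene, the labels state no change to the endogenous Isl1 and Lhx3 genes, and they do not say whether the stable line is 1 clone. The deposited list is 1 list for the whole series, with a ChIP score, a background score and a count of tags at each peak and no value per library, so no spread between libraries and no difference between Dox and no Dox could be measured. A peak list holds no expression values, so the labelled cell type was not checked against marker genes.

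Isl1 and Lhx3 are LIM-homeodomain factors: a homeodomain reads AT-rich DNA with the core ATTA, and a pair of LIM domains binds partner proteins. In developing motor neurons the cofactor Ldb1, which binds itself and LIM domains, joins Isl1 and Lhx3 into a complex that switches on motor neuron genes. Isl2 and Lhx4 are close relatives of Isl1 and Lhx3 that act in the same lineage, and Lmo4 is a LIM-only protein without a homeodomain that can bind Ldb1.

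The sequences under the peaks show how the sites of the 3 genes differ. They were read from the mm9 genome, plus strand, 5′ to 3′. For Lhx3 the 200 bp around each maximum are shown, chr2:26050215-26050414 and chr2:26042167-26042366, and for Lmo4 a stretch that holds both maxima, chr3:143861925-143862204. Capitals mark every ATTA on either strand, which reads TAAT on the plus strand when it lies on the other one.

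Lhx3, stronger peak: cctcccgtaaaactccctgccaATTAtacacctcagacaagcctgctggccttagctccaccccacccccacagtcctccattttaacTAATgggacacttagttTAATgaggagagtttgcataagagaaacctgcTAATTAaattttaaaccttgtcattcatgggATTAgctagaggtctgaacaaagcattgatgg

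Lhx3, weaker peak: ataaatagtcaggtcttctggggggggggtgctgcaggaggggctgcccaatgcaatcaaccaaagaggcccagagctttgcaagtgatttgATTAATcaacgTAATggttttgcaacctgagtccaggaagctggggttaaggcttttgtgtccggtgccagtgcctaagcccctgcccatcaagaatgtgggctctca

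Lmo4, both maxima: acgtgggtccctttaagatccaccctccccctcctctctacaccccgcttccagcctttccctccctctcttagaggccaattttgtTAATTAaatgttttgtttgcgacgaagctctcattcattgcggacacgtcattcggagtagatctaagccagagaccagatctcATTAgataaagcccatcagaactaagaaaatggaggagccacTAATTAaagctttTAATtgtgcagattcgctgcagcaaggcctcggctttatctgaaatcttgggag

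For Isl1, the whole region of the stronger peak, chr13:117091773-117092035, and the 200 bp around the maximum of the weaker one, chr13:117093354-117093553, are shown with the coding exon in capitals. The gene lies on the minus strand, so the exon is printed as the reverse complement of the message. They are shown because the peaks lie on coding sequence and hold no ATTA within 100 bp of their maxima. The printed region of the stronger peak does hold an ATTA core farther out, centred 121.5 bp from the maximum. It reads taat in lower case near the right end.

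Isl1, stronger peak: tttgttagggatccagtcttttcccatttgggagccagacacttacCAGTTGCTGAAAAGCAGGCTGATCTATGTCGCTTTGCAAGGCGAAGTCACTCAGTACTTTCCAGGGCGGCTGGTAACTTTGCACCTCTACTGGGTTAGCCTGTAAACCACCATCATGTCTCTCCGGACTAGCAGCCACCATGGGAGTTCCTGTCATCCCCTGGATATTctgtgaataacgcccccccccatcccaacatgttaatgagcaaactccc

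Isl1, weaker peak: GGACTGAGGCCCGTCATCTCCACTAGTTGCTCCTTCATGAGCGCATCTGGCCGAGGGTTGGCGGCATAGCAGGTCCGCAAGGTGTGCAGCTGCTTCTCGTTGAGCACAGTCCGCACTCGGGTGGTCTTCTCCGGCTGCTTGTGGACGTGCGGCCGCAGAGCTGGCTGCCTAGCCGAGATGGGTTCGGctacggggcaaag

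At least 1 peak was found for 3 of the 6 genes (50%, exact 95% binomial interval 11.8 to 88.2). Among all 22367 protein-coding genes, 1826 (8.16%) had a peak. The 6 genes were chosen with earlier results of these data known, so the difference between these shares is given without a test. The interval takes the genes as random draws with a common chance of a peak, which they were not. The bases nearest to a gene's own starts, its territory, differed widely within the group: 809 kb for Lmo4, 370 kb for Isl1, 107 kb for Lhx4, 53.8 kb for Lhx3, 29.1 kb for Ldb1 and 24.1 kb for Isl2, against a median of 45.5 kb over protein-coding genes. The genes with the largest territories, Lmo4 and Isl1, had peaks, and those with the smallest, Ldb1 and Isl2, had none. Lhx3 had peaks with a smaller territory than Lhx4, which had none. The part of territory in which genes had a peak was not tested.

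**Figure D1:**
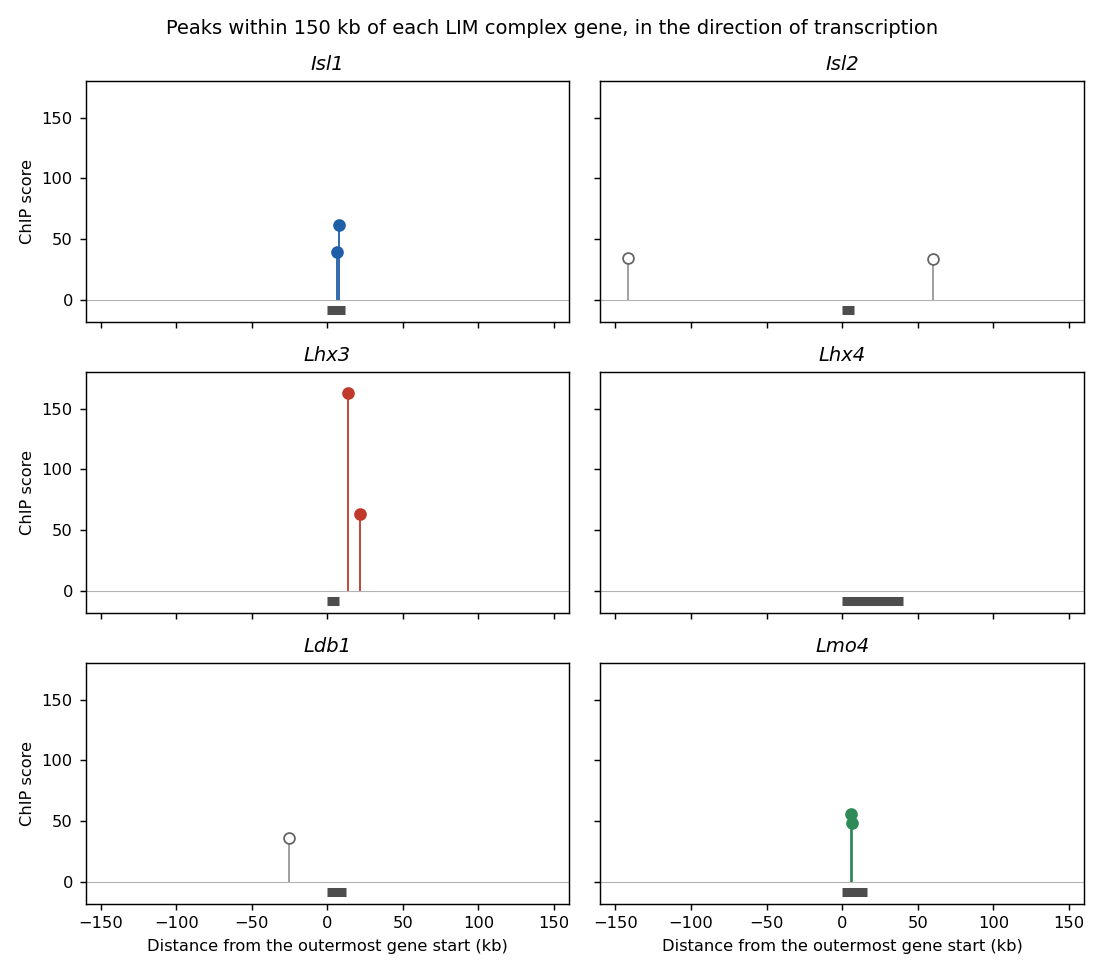
ChIP score of each peak (vertical axis, the authors' score with no stated scale) by its distance from the outermost start of the gene (horizontal axis, kb, in the direction of transcription), for each LIM complex gene. Filled points are peaks counted for that gene, open points are peaks nearer to another protein-coding gene, and the dark bar is the gene: only Isl1, Lhx3 and Lmo4 have filled points, and Lhx4 has no point within 150 kb.

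Lhx3 had the strongest peak of the group. Its ChIP score was 162.46, rank 18 of 2454 (the top 0.733%), with a background score of 1.81 and 109 tags (89.5 to 131, exact 95% Poisson interval, which covers counting error only). Across the list the median score was 40.95 with quartiles of 34.26 and 54.07. The peak (window at chromosome 2, 26050065 to 26050564) was intergenic. It lay 5.42 kb past the 3′ end of Lhx3, 8.07 kb from the nearest start, which belongs to a noncoding transcript of the gene, and 11.8 kb from the nearest start of a coding transcript. On the other side the closest protein-coding start, that of Nacc2, was 71.6 kb away.

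The second Lhx3 peak (window at chromosome 2, 26042017 to 26042516) lay 8.05 kb from the first and 13.5 kb past the 3′ end of the gene. Its score was 62.9, rank 398, with a background score of 0.13 and 47 tags (34.5 to 62.5). Its maximum fell in an exon of the noncoding gene Gm13553 (chromosome 2, 26042249 to 26047198), which extends from there toward the stronger peak. The start of Gm13553 was nearer than that of Lhx3 to each peak, at 3.12 kb from the stronger and 4.93 kb from the weaker. Both Lhx3 peaks were therefore on the same side of the gene, past its end, and no maximum lay in any of its 7 annotated coding exons or upstream of it within 500 kb.

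**Figure D2:**
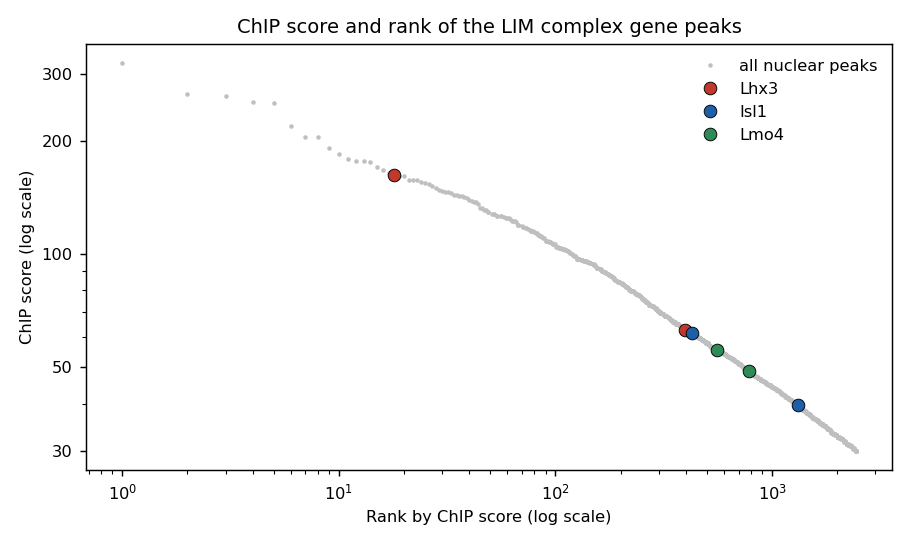
ChIP score (vertical axis, log scale) against rank (horizontal axis, log scale) for all 2454 nuclear peaks in grey, with the peaks of Lhx3, Isl1 and Lmo4 in colour. The stronger Lhx3 peak stands at rank 18, and the other 5 lie between ranks 398 and 1324.

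Lmo4 had a single bound region with a pair of maxima 129 bp apart. The region (chromosome 3, 143861854 to 143862345) lay in an intron and held 53 tags (39.7 to 69.3), a count that both maxima share. The stronger maximum had a score of 55.67, rank 557, with a background score of 2.19, and lay 3.13 kb downstream of the nearest Lmo4 start. The weaker one had a score of 48.71, rank 779, a background score of 0, and lay 3.26 kb downstream. Lmo4 is alone in its neighbourhood: the closest protein-coding start on the other side of the stronger maximum was that of Hs2st1, 371 kb away. Of the 6 peaks, these were the nearest to a start of their gene, and none of the 6 lay within 3 kb of one.

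Isl1 had a pair of peaks inside the gene, 1.55 kb apart. The stronger (window at chromosome 13, 117091651 to 117092150) had a score of 61.56, rank 426, a background score of 0.17 and 30 tags (20.2 to 42.8), and lay 8.0 kb downstream of the start. The weaker (117093204 to 117093703) had a score of 39.61, rank 1324, below the median of the list, with a background score of 0.02 and 32 tags (21.9 to 45.2), at 6.44 kb. The tag intervals of the pair overlap, and the scores have no stated error. The tag interval of the stronger Lhx3 peak lay above those of all 5 other peaks, of which the Lmo4 maxima share a count. Tags are counted per region, however, and its region of 805 bp was the widest of the group. The part of region width in this difference was not tested. No other peak lay within 500 kb of the Isl1 start.

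Both Isl1 peaks fell on protein-coding sequence, a place that held 22 peaks of the list (0.896%). The weaker peak sat on the coding exon numbered 4 in the direction of transcription (117093254 to 117093540, 287 bp), which encodes homeodomain sequence, and the stronger on coding exon 5 (117091819 to 117091986, 168 bp). Each peak region covered its exon whole and ended soon after it. At coding exon 4 the region of 385 bp ran 59 bp and 39 bp past the exon ends. At coding exon 5 the region of 263 bp ran 46 bp and 49 bp past them, and its maximum was 2.5 bp from the middle of the exon. The other 4 coding exons of Isl1 held no maximum and were touched by no region.

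**Figure D3:**
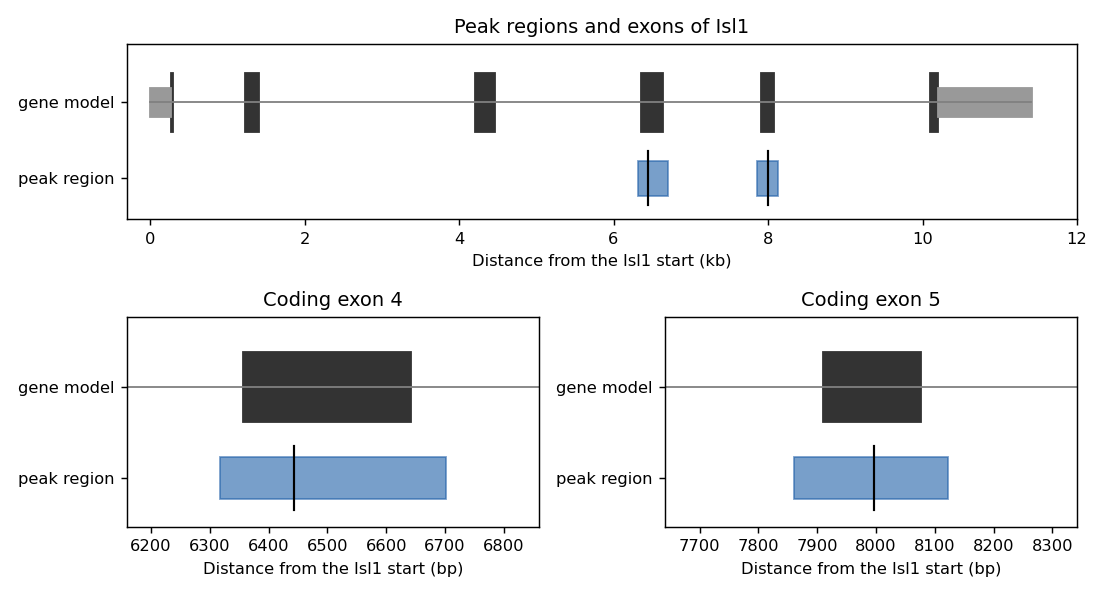
Isl1 gene model (coding exons dark, untranslated exons grey) and the peak regions (blue, with the maximum as a black line) by distance from the Isl1 start, for the whole gene (kb) and around coding exons 4 and 5 (bp). Each region spans 1 coding exon and ends 39 to 59 bp beyond it.

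The fit of region to exon was set beside the other coding exons that held a maximum. Peaks with a maximum in a coding exon lay in 19 regions. Taking for each region the end that was farther from the end of its exon, the distance was 49 bp and 59 bp for the Isl1 regions and 62 to 1820 bp (median 243 bp) for the other 17. By other measures the Isl1 regions did not come first. Summed over both ends, the distance was 95 bp and 98 bp at Isl1 and 79 bp at Neurog2. The exon made up 63.9% and 74.5% of the Isl1 regions, 90.9% of that at Neurog2 and 100% of that at Nsd1, which lay inside a long exon. The comparison was made after the values were seen and has no test. The fusion transgene also carries coding sequence of Isl1 and of Lhx3, in libraries with and without Dox alike, and the part of transgene DNA in the Isl1 peaks was not tested. The background scores at the Isl1 peaks (0.17 and 0.02) were below the list's median of 0.345, but what that score was measured on is not given. The coding exons of Lhx3, the other component of the fusion, held no peak.

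**Figure D4:**
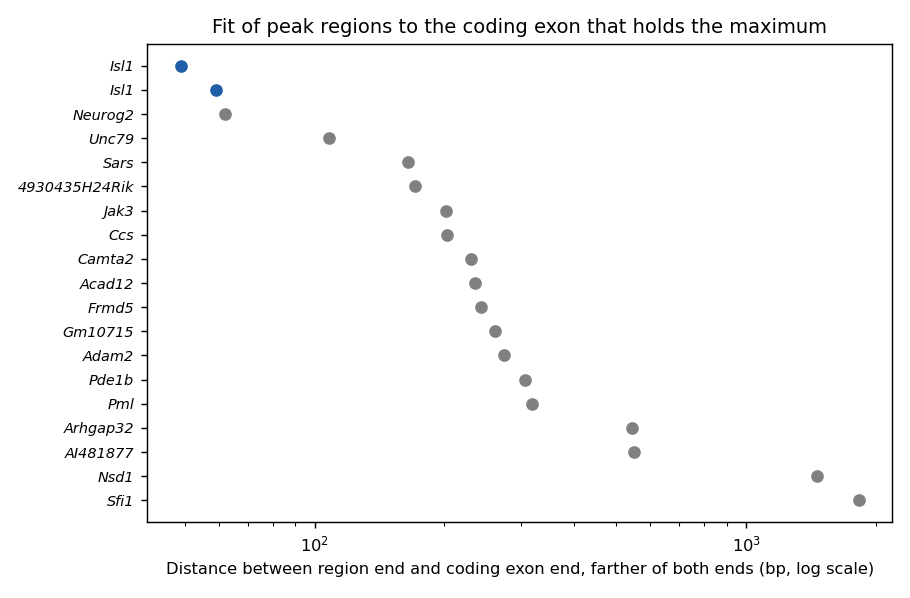
Distance in bp (horizontal axis, log scale) between the end of a peak region and the end of the coding exon that holds its maximum, taking the farther of both ends, for the 19 regions with a maximum in a coding exon, labelled by gene. By this measure the Isl1 regions (blue) are lowest, at 49 and 59 bp, followed by Neurog2 at 62 bp.

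Both Isl1 regions were narrower than the list's median of 480 bp. The one at coding exon 5 lay below the lower quartile of 359 bp, and the one at coding exon 4 did not. Only 6.68% of all peaks lay in a region narrower than the 263 bp at coding exon 5, and 29.9% in one narrower than the 385 bp at coding exon 4. The Lmo4 region of 492 bp was near the median of 480 bp, and the Lhx3 regions were wide, at 805 bp and 656 bp. Tags per kb of region were 135 at the stronger Lhx3 peak, 114 and 83.1 at Isl1, 108 at Lmo4 and 71.6 at the weaker Lhx3 peak, against a median of 66.1 over the list. By tags alone the order of the genes changed: Lmo4 (rank 478) came before Isl1 (rank 1167), and the stronger Lhx3 peak fell to rank 94.

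The peaks of the 3 genes also differed in homeodomain sequence. The palindrome TAATTA, which LIM-homeodomain factors bind, was present within 200 bp centred on the maximum at 3 of the 6 peaks, 1 at Lhx3 and both at Lmo4, against 34.2% of all peaks. The core ATTA was present at all 4 peaks of Lhx3 and Lmo4 and at neither peak of Isl1, against 94.2% of all peaks. Both motifs were searched on both strands, and each TAATTA holds a pair of overlapping ATTA cores. The Isl1 peaks thus belonged to the 143 peaks (5.83%) without an ATTA in this window. Of the 20 coding exon peaks outside Isl1, 6 also had none, maxima at Neurog2 among them. In 500 bp the stronger Isl1 peak had 3 and the weaker still had none, as did 30 peaks (1.22%) of the list.

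At the stronger Lhx3 peak, 6 ATTA cores lay in the 200 bp, a number reached by 7.99% of all peaks, whose median was 3. The nearest core was centred 7.5 bp from the maximum, and the TAATTA was centred 40.5 bp from it. The weaker Lhx3 peak had no TAATTA, but its 3 cores crowded around the maximum, the nearest centred 3.5 bp away. They include TAAT repeated in the same direction with 5 bases between, an arrangement found in 6.03% of all peaks and searched because earlier results had named it. The median distance from a maximum to the nearest core was 16.5 bp over the list.

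At Lmo4, each maximum had its own TAATTA. It was centred 11.5 bp from the stronger maximum and 14.5 bp from the weaker, and the copies were 126 bp apart, close to the 129 bp between the maxima. ATTA matches in 200 bp numbered 4 and 3. The 2 windows overlap, so they are not separate examples.

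**Figure D5:**
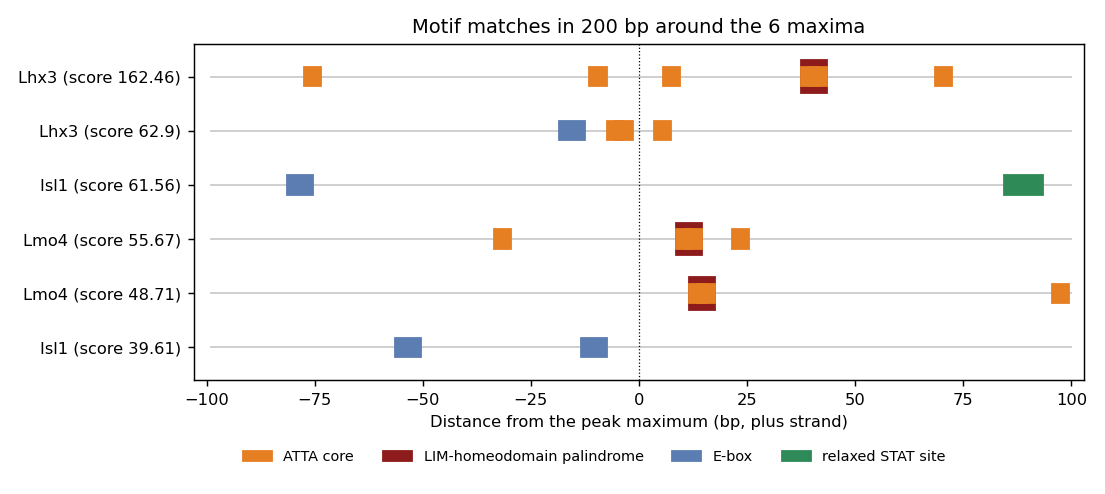
Matches to the ATTA core, the LIM-homeodomain palindrome, the E-box and the relaxed STAT site by distance from the maximum (horizontal axis, bp, plus strand) in 200 bp around each of the 6 maxima, ordered by ChIP score. Cores lie near the maximum at Lhx3 and Lmo4, and the Isl1 rows hold no core.

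Other motifs were counted in the same windows. The E-box CANNTG, read by basic helix-loop-helix factors such as the Neurogenins, was found at 3 of 6 peaks (1 of Lhx3 and both of Isl1), against 67.2% of all peaks, and its form CAGCTG only at the weaker Isl1 peak, against 13.9%. A relaxed STAT site, TTCNNNGAA, was found at 1 of the 6, the stronger Isl1 peak, against 4.97%, and was centred 89 bp from the maximum. ATTA followed by TAAT with 2, 3 or 10 bases between, and the octamer ATGCAAAT, had no match at the 6 peaks, against 3.55%, 4.97%, 2.93% and 4.24% of all peaks. The GC content of the 200 bp was 63.5% at the weaker Isl1 peak and 44.0% to 52.5% at the other 5, against a median of 48.0%, and the part of base composition in the missing cores was not tested.

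The members without a peak differed in how far the nearest one lay. For Ldb1, the cofactor that joins the LIM factors, the nearest maximum was 25.6 kb away, in an intron of Pprc1 and 0.917 kb from a Pprc1 start, with a score of 35.86 (rank 1629) and 16 tags. For Isl2 it was 56.4 kb away, in an intron of Scaper, with a score of 33.46 (rank 1897) and 25 tags. Lhx4 was the most isolated, with the nearest maximum 655 kb away, near Ier5, with a score of 45.77 (rank 924). All of these scores were below those of both Lhx3 peaks, and those near Ldb1 and Isl2 were also below those of both peaks of Isl1 and of Lmo4. The list holds called peaks with a score of at least 29.98, so weaker binding at Isl2, Lhx4 or Ldb1 would not be seen in it.

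Peaks were also counted in the wider LIM family. Of 16 other LIM-homeodomain, LIM-only, LDB and SSBP genes and Rlim, 3 had a peak (18.8%, 4.05 to 45.6), to be read against the 8.16% of all protein-coding genes. The interval takes these genes as random draws, which they were not. Their territories ran from 11.2 kb for Ssbp4 to 370 kb for Ldb2. All but that of Ssbp4 were above the median of 45.5 kb over protein-coding genes. The part of territory in the family's share was not tested. Ssbp3, whose product binds and stabilises Ldb1, had 3 intronic peaks, with scores of 91.8 (rank 155, 68 tags), 48.18 and 32.92, at 4.17, 20.2 and 22.3 kb from a start. From the strongest of them, the nearest start of a coding transcript was 6.39 kb away. Lhx5, a LIM-homeodomain gene of spinal interneurons, had peaks of 83.51 and 80.29, at 127 kb upstream and 15.7 kb downstream of its start. Lmo3, a LIM-only gene, had 1 peak of 35.6 in an intron, 0.75 kb upstream of the nearest of its 8 annotated starts. The remaining 13 had none: Lhx1, Lhx2, Lhx6, Lhx8, Lhx9, Lmx1a, Lmx1b, Lmo1, Lmo2, Ldb2, Ssbp2, Ssbp4 and Rlim, a ubiquitin ligase gene for LIM cofactors.

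Which gene receives a peak depended on the annotation for Lhx3 alone among the 6. When noncoding genes could receive peaks too, both Lhx3 peaks went to Gm13553 and 2 of the 6 genes, Isl1 and Lmo4, had a peak, against 5.2% of all 37273 annotated genes. Without peaks in coding exons of Isl1 or Lhx3, Isl1 had none, and 2 of the 6, Lhx3 and Lmo4, remained. In score, the peaks on either side of the stronger Lhx3 peak were those assigned to 4933426M11Rik (164.34, 17.2 kb from a start) and Zdhhc18 (161.39, 6.29 kb). The stronger Isl1 peak shared its score of 61.56 with 8 other peaks, those assigned to Haao (144 kb from a start) and Tbca (141 kb) among them. The stronger Lmo4 maximum shared 55.67 with 10, those assigned to Nfib (56.9 kb) and Gm9733 (76.5 kb) among them. These genes stood next to Isl1 and Lmo4 only by the order given to tied peaks, and the likeness is in 1 value of 1 list.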

How the data were processed

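Reads were aligned with BWA 0.5.8a to mm9, per the submitters' processing notes. How peaks were called, at which threshold, and whether the sets were pooled is not given in the sources used here. Both scores (ChIP and background) are deposited values with no stated scale, and the ChIP tags are a deposited count per region. Library depth is unknown.

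Of 2455 peaks, 1 mitochondrial peak was left out. Starts of all transcripts of protein-coding genes in GENCODE M1 (mm9) were used, each maximum was given to the nearest, and motifs were counted in 200 bp of the same genome (python 3.11.15, scipy 1.17.1, pyfaidx 0.9.0.4). Assignment and motif counting were tested on simulated data. No test was run, since the list gives no replicate values.

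Named are all members and the other LIM family genes, the neighbours of member peaks, the genes nearest to members without a peak, and those next in rank. The members and lists were chosen with earlier results of these data known. Alternatives were other gene sets, distances, score limits, background limits, windows and measures of strength.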

Additional observations from a re-analysis of the deposited data

How the results depend on the processing

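No paired analysis was possible because the list gives no value per library, and for the same reason no library could be left out. Counting any peak within 100 kb of a start, nearest or not, raised the share of protein-coding genes with a peak from 8.16% to 21.0%. With that rule the count of 3 members with a peak became 5, adding Isl2 and Ldb1 through the peaks in Scaper and Pprc1. It was 2 to 3 under the other alternatives: 2 with all annotated genes and 2 without the coding exon peaks, and 3 with peaks within 10 kb or 100 kb, with the top-scoring 50% or 25% of peaks, with peaks whose background was under 10% of their ChIP score, and with starts of protein-coding transcripts only, which was added after the data were seen. The 6 member peaks became 4 to 6, and 5 with 1 peak kept per region. The 3 other LIM family genes became 2 to 4, with 4 when any peak within 100 kb of a start counted. They became 2 with peaks within 10 kb, and with the top-scoring 50% or 25% of peaks. In these settings the share of protein-coding genes with a peak also fell, to 3.09%, 4.65% and 2.45%. The 3 of 6 member peaks with TAATTA stayed 3 in 100 bp and 500 bp. The share of all peaks with TAATTA was 26.3% in 100 bp and 41.6% in 500 bp, against 34.2% in 200 bp. With all annotated genes, 2 of 4 member peaks had a TAATTA. With ChIP tags as strength the best rank of Lhx3 moved from 18 to 94 and that of Isl1 from 426 to 1167, and the cause was not tested, while that of Lmo4 moved from 557 to 478. The Isl1 ranks belong to different peaks. By tags the coding exon 4 peak was at 1167 and the coding exon 5 peak, at 426 by score, was at 1279. With the background score subtracted the best ranks of Lhx3, Isl1 and Lmo4 were 19, 410 and 585. The 10 kb limit uses the internal noncoding start of Lhx3.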

Other observations

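A close fit of a peak region to a coding exon was also found at Neurog2, a basic helix-loop-helix gene of motor neuron progenitors, chosen here after its values were seen. Its region of 868 bp held 4 maxima, with scores of 91, 66.64, 60.76 and 57.54, and 158 tags. It covered the coding exon of 789 bp whole and ran 17 bp and 62 bp past its ends, less in sum than at Isl1 (79 bp against 95 bp and 98 bp), although its farther end was farther (62 bp against 49 bp and 59 bp). The background score was 0 at all 4 maxima, 0 of the 4 had a TAATTA and 1 had an ATTA. Outside Isl1, 6 of 20 coding exon peaks had no ATTA in 200 bp, and the Neurog2 maxima were 3 of those 6. The transgene is not stated to carry Neurog2 sequence, and the source of these tags was not tested.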
